A study of Rattus norvegicus with 46 samples.

Results

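The alpha-actin genes Acta1 and Acta2 and the smooth muscle contractile genes Tagln and Myl9 were followed through several forms of cardiac hypertrophy and in the newborn heart of the rat. The members were all probe sets annotated to exactly 1 of these 4 genes (of 4736 named on the array), which gave 8 of its 8740 probe sets: J00692_at for Acta1, rc_AA900769_s_at, X06801cds_f_at and X06801cds_i_at for Acta2, M83107_g_at and M83107_at for Tagln, and S77900_g_at and S77900_at for Myl9. A further 4 probe sets annotated to both Acta2 and the cardiac actin gene Actc1 were not counted as members. Each gene is given first by its brightest probe set, the earliest named above, and then by the others. All 8 probe sets had every value above the floor used here, so none was lost to a filter.

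Messenger RNA of male Wistar rats was hybridised to 46 arrays with 1 RNA pool on each, 26 of them from hypertrophic hearts, 2 from neonatal left ventricles of hearts harvested 3 days after birth and 18 from adult control hearts. Pressure overload by banding of the ascending aorta was sampled at 6, 12 and 16 weeks with 2 arrays each and at 30 weeks with 4, and the myocardium left after coronary ligation, with the scar cut away, was sampled at 3 and 9 weeks with 4 arrays each. Volume overload by an aorto-caval shunt was sampled at 3 and 8 weeks, each with 2 arrays, and 2 groups of 2 arrays came from rats given Ditpa, a thyroid hormone analogue, or subcutaneous angiotensin II for 2 weeks. Every surgical time point had its own 2 sham arrays, and both hormones share the same 2 vehicle arrays, so the angiotensin II and Ditpa effects are not independent of each other. An array holds pooled animals, so p-values measure the spread between pools. In a whole ventricle, a change in the number of cells of a type and a change in RNA per cell cannot be told apart.

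The alpha-actins are muscle actins. Acta1 encodes skeletal muscle alpha-actin, which the heart expresses early in life and which belongs to the fetal genes that overloaded adult ventricles express again. Acta2 encodes smooth muscle alpha-actin, present in the embryonic heart, in vascular smooth muscle and in activated fibroblasts. Tagln encodes transgelin (SM22), an actin-binding protein of smooth muscle and a target of serum response factor, and Myl9 encodes a regulatory light chain of smooth muscle and nonmuscle myosin. Serum response factor binds the CArG box, an A/T-rich element found in the promoters of many muscle genes.

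RefSeq places Acta1 on chromosome 19 (68781168 to 68784194), Acta2 on chromosome 1 (241159723 to 241172503), Myl9 on chromosome 3 (165742020 to 165748409) and Tagln on chromosome 8 (55121647 to 55127121) of the GRCr8 assembly. The array probes themselves carry no coordinates. The 250 bases before the start of the 2 alpha-actin genes are shown because the rest of the text sets their values side by side. They were taken from the minus strand of GRCr8 at chr19:68784195-68784444 for Acta1 and chr1:241172504-241172753 for Acta2, with the motifs searched in capitals.
Acta1: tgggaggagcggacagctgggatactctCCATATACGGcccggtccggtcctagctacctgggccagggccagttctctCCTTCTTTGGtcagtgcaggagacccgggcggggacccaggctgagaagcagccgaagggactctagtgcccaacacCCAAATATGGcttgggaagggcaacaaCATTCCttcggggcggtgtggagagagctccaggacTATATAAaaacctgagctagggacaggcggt
Acta2: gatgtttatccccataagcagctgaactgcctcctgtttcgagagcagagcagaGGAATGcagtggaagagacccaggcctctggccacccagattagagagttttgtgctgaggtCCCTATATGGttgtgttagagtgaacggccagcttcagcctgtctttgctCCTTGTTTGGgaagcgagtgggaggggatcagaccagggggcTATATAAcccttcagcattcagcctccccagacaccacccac
Both strands were searched, and overlapping motifs were allowed. The Acta1 window held a CArG box with an uninterrupted A/T centre, CCAAATATGG, 94 to 85 bases before the start, a match found in 1.49% of the 27457 promoter windows of this length. CArG-like elements with a single G or C in the centre, found in 6.8% of windows, stood at 222 to 213 and 171 to 162 bases before the start of Acta1 and at 134 to 125 and 84 to 75 bases before the start of Acta2. The letters CATTCC, the core of the muscle MCAT element, were found on the sense strand of Acta1 and, as GGAATG, on the other strand of Acta2 (11.9% of windows). TATATAA stood at 31 to 25 bases before the start of Acta1 and 42 to 36 bases before that of Acta2 (3.48% of windows). These matches describe the letters and say nothing of binding in these hearts.

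The authors' intensities were comparable between arrays in the middle of their range, with array medians of 1002.6 to 1084.41, but not at the top, where the highest value of an array ran from 22581 to 64884. Some surgical groups also differed there from their shams, in both directions. The 3 week shunt arrays had 35065 to 42377, against 51862 to 63873, and the 16 week banded arrays 50826 to 56477, against 34592 to 40141. The 6 week banding shams had 27718 and 64867. The part of this scale in the surgical effects was not tested. Summed over 10 cardiomyocyte markers the median intensity was 326756 on treated, 189408 on neonatal and 317389 on adult control arrays. Effects below are log2 differences of treated from own control arrays, ± SE, taken from a single limma fit over all 46 arrays. The word called stands for an adjusted p (Benjamini-Hochberg, 8740 probe sets) below 0.05, and the average effect is the plain mean over the 10 treated groups. Statements that groups did or did not overlap only describe the few arrays on each side. The share of all probe sets that separate in the same way is not given here, so they are no test.

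Acta1 was the member with the largest response. In aortic banding it averaged 4.05-fold over sham, in infarction 2.97-fold and in the shunt 1.66-fold, and the first 2 of these passed the test. The banded hearts at 6 weeks had intensities of 32936 and 36314, against 10664 and 8347 in their shams. At 12 weeks they had 26685 and 34894, against 7285 and 6582, and at 16 weeks 27776 and 23836, against 5231 and 7016. All banded arrays thus stood well above every sham array, with no overlap at any time. At 30 weeks the 4 banded arrays had 31200.2, 28456, 24651 and 24364, against 5767 and 8231 in sham hearts, a separation of the same kind. The effect was 1.87 ± 0.238 log2 at 6 weeks, 2.14 ± 0.238 at 12 weeks, 2.09 ± 0.238 at 16 weeks and 1.97 ± 0.206 at 30 weeks, each called by limma (adjusted p = 1.15e-05, 8.28e-07, 1.39e-06 and 2.51e-07), where 0.469%, 0.252%, 0.217% and 0.95% of all probe sets were called higher at those times. Over the 4 times it was 2.02 ± 0.115 (adjusted p = 3.04e-14), and the 4 times did not differ detectably (moderated F, adjusted p = 0.989).

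After infarction the surviving myocardium showed the same direction. Acta1 had intensities of 17547, 16238, 15371 and 17624 at 3 weeks, against 6710 and 6172 in sham hearts, and 26916, 14576, 18249 and 13671 at 9 weeks, against 4514 and 5978. The groups did not overlap at either time. The effect was 1.37 ± 0.206 log2 at 3 weeks and 1.77 ± 0.206 at 9 weeks (limma adjusted p = 0.00032 and 1.82e-06, with 0.206% and 1.69% of all probe sets called higher), and 1.57 ± 0.146 over both (adjusted p = 8.55e-09). The 9 week minus 3 week difference of 0.39 ± 0.291 was within its error (adjusted p = 0.938).

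The shunt hearts were also higher than their shams, by less. They had 10777 and 11158 at 3 weeks, against 6486 and 5636, and 11566 and 11762 at 8 weeks, against 5919 and 9896. The groups did not overlap, but 1 sham array at 8 weeks came close to the shunt arrays. The effect of 0.73 ± 0.168 log2 did not pass over all probe sets (adjusted p = 0.111, 95% interval 0.39 to 1.08), with 0.86 ± 0.238 at 3 weeks and 0.61 ± 0.238 at 8 weeks. Without shunt sham 8 weeks replicate 4 it was 0.92 and was called (adjusted p = 0.0117), and without shunt 3 weeks replicate 1 it was 0.75 (adjusted p = 0.0231).

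**Figure D1:**
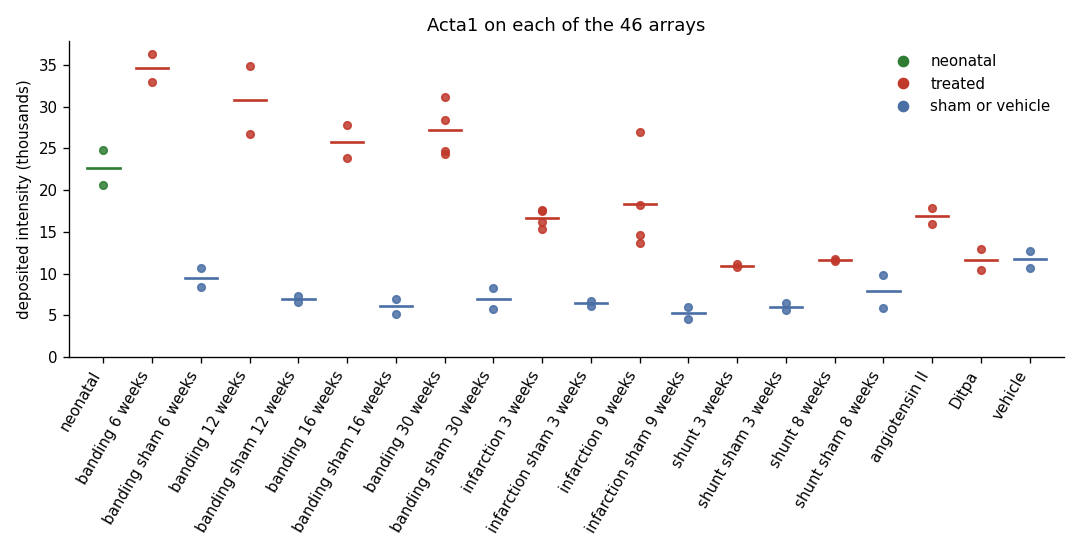
Deposited intensity (linear axis from 0) of Acta1 on each of the 46 arrays by group, neonatal in green, treated in red and sham or vehicle in blue, with a bar at the group mean. The banded arrays lie between 23836 and 36314 and the control arrays between 4514 and 12725.

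With the hormones the picture was less clear, and the scale of these arrays differed from vehicle, as scale did in some surgical groups. Acta1 had 15941 and 17876 with angiotensin II and 12916 and 10392 with Ditpa, against 10709.8 and 12725 with vehicle. Angiotensin II arrays were above both vehicle arrays and Ditpa arrays overlapped them. The effect was 0.53 ± 0.238 log2 with angiotensin II (95% interval 0.05 to 1.02) and -0.01 ± 0.238 with Ditpa (-0.50 to 0.47), neither called, and limma called 0 of 8740 probe sets with either hormone (305 and 280 at an unadjusted p below 0.05). The highest value on an array was 22581 to 23633 with angiotensin II and 22988 to 23322 with Ditpa, against 33408 to 39898 with vehicle, and Acta1 stood at 70.6 to 75.6% of the array's highest value with angiotensin II and at 45.2 to 55.4% with Ditpa, against 26.8 to 38.1% with vehicle. The summed intensity of 10 cardiomyocyte markers was 164328 to 168166 with angiotensin II and 164466 to 164568 with Ditpa, against at least 227183 with vehicle, and none of the 10 was called. The part of this scale in the Acta1 result was not tested. After quantile normalization, which gives every array the same top, the angiotensin II effect was 1.03 ± 0.218 (adjusted p = 0.201) and that of Ditpa 0.15 ± 0.218.

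Over all 10 treated groups Acta1 rose by 1.32 ± 0.0761 log2, or 2.50-fold (limma adjusted p = 2.65e-14), the 6th largest of 8740 average effects. That mean gives more weight to models with more time points, banding most of all. With the 5 models weighted equally the effect was 0.97 log2, still called. Acta1 was above the mean of its own controls on 25 of 26 arrays, the exception being Ditpa replicate 2 with a log2 ratio of -0.17. Such counts, here and for the other members, are descriptions, since the arrays of a group share their controls. The share of all probe sets is given below only for a count of 26 of 26. The study's methods name a rank sum test on log fold changes. Run here as an exact two-sided test of 26 treated against 18 control log2 ratios, a form chosen for this comparison, it gave a Bonferroni adjusted p of 2.71e-05, where 1.34% of all probe sets passed. The test takes the ratios as independent, which they are not. Each control array is part of the mean it is divided by, and treated arrays of a group share their controls. Rank sum p-values here and below can therefore be too small. The 5 models differed for Acta1 (moderated F, Bonferroni adjusted p = 0.000214), as they did for 10 probe sets in all, 0.114% of those tested. Acta1 was the member for which this held: for the other 7 probe sets the adjusted p was 1. Surgical models exceeded hormones by 1.18 ± 0.222 log2 (limma adjusted p = 0.00762, 0.217% of probe sets called higher). That difference fell to 0.72 ± 0.203 and lost its call after quantile normalization (adjusted p = 0.362), and it also lost its call without vehicle replicate 2 (adjusted p = 0.189). By mean log2 intensity the groups ran from banding at 6, 12, 30 and 16 weeks through neonatal hearts, infarction at 9 weeks, angiotensin II and infarction at 3 weeks, with each group overlapping the next. Then followed, below the lowest array of infarction at 3 weeks, vehicle, the shunt at 8 weeks, Ditpa and the shunt at 3 weeks, each overlapping the next, and then the 8 sham groups. The 3 week shunt arrays lay above the 6 week banding shams that came next, but the lower Ditpa array, at 10392, lay below the higher of those shams, at 10664.

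Acta2 gave a smaller and less even response that depended on the probe set. Its brightest probe set, rc_AA900769_s_at, had 3685, 3767, 3268 and 2867 in hearts banded for 30 weeks, against 1919 and 1677 in sham hearts. These groups did not overlap, and the effect of 0.91 ± 0.248 log2 lay just outside the threshold (limma adjusted p = 0.0683) and passed it with array weights (0.96, adjusted p = 0.00502). At 12 weeks the banded arrays had 1770 and 4116, against 1735 and 2059, so 1 banded pool was at the sham level and the other was the highest of all adult arrays. At 6 weeks the values were 2249 and 1957, against 2104 and 1959, and at 16 weeks 2462 and 2332, against 2033 and 2100. The groups overlapped at 6 weeks and lay close together at 16 weeks. The banding effect was 0.42 ± 0.139 (adjusted p = 0.0745). It was 0.57 and called (adjusted p = 0.00425) without banding 12 weeks replicate 1, and 0.37 and called (adjusted p = 0.0343) as the mean of the 3 probe sets.

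After infarction rc_AA900769_s_at had 3251, 2144, 2393 and 2424 at 3 weeks, against 1913 and 1910 in sham hearts, and 3431, 2538, 1934 and 2173 at 9 weeks, against 1797 and 1638. All 8 infarction arrays were above both of their shams. The effect of 0.46 ± 0.175 log2 was not called (limma adjusted p = 0.246), although array weights brought it to a call (adjusted p = 0.0287). Its effect was 0.06 ± 0.203 in the shunt, -0.21 ± 0.287 after angiotensin II and 0.14 ± 0.287 after Ditpa. The 3 week shunt arrays had 2615 and 1750, against 2052 and 1745 in shams, and the 8 week ones 2009 and 2054, against 2093 and 2107. With the hormones the arrays had 1867 and 1616 with angiotensin II and 2749 and 1781 with Ditpa, against 2266 and 1777 with vehicle. Apart from the 8 week shunt arrays, which were just below their shams, these groups overlapped their controls. On average the probe set was higher by 0.27 ± 0.0917 on 18 of 26 arrays, outside the threshold (adjusted p = 0.0955). It passed without banding 12 weeks replicate 1 (adjusted p = 0.00978), in the 8 surgical groups alone (0.34, adjusted p = 0.0247) and as the mean of the 3 probe sets (0.32, adjusted p = 0.00383).

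The second Acta2 probe set, X06801cds_f_at, was above its own controls on all 26 treated arrays, as were 11 probe sets in all (0.126%). Its intensity was 801 to 1629 on treated arrays (median 1109), against 580 to 1098 on control arrays (median 854). The ranges overlapped widely across the study, and the ordering appears within each comparison, where the log2 ratio to the own controls ran from 0.07 to 1.21. It rose by 0.47 ± 0.0749 log2 on average (limma adjusted p = 8.96e-05, exact rank sum Bonferroni adjusted p = 1.55e-05), by 0.53 ± 0.113 with banding (adjusted p = 0.00324) and by 0.69 ± 0.143 after infarction (adjusted p = 0.00489). In the array maker's naming the letter f marks a probe set that can bind several members of a sequence family. How far other actins add to this signal was not tested. Over the 26 log2 ratios its Pearson r with Acta1 was 0.49, a description of arrays that share controls within a group. X06801cds_i_at was higher on 22 of 26 arrays by 0.22 ± 0.0788 and was not called (adjusted p = 0.109), although it was without banding sham 12 weeks replicate 3 (adjusted p = 0.0417) or banding 12 weeks replicate 1 (adjusted p = 0.0166), and with array weights (adjusted p = 0.0365). Over the same 26 ratios the brightest probe set correlated at r = 0.47 with X06801cds_f_at and at 0.59 with X06801cds_i_at, and those 2 X06801cds probe sets correlated with each other at 0.35.

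Tagln rose in pressure overload. M83107_g_at was above its own sham mean on all 10 banded arrays, with intensities of 2976 and 2718 at 6 weeks, against 2566 and 2307, 3157 and 4053 at 12 weeks, against 2683 and 2928, and 3141 and 3558 at 16 weeks, against 2659.9 and 2415. At 30 weeks the banded arrays had 3604, 3203, 3799 and 3054, against 3039 and 2619 in sham hearts. On this probe set there was no overlap at any of the 4 times, although at 30 weeks the lowest banded array, 3054, stood close to the highest sham array, 3039. The effect of 0.31 ± 0.066 log2 was called (limma adjusted p = 0.00284), as was that of M83107_at at 0.39 ± 0.0779 (adjusted p = 0.00158). On M83107_at the banded arrays overlapped their shams at 6 weeks, with 1058 and 1112 against 806 and 1067. They also overlapped at 12 weeks, with 1067 and 1661 against 955 and 1096. After infarction M83107_g_at had 3153, 2823, 3529 and 3294 at 3 weeks, against 2795 and 3104, and 3611, 3328, 2735 and 2693 at 9 weeks, against 2913 and 2817. The groups overlapped at both times, and the effect was 0.11 ± 0.0835 (adjusted p = 0.731). M83107_at was higher at 9 weeks, with 1405, 1455, 1335 and 1179.9, against 935 and 876 (0.57 ± 0.139, adjusted p = 0.0291), and at 3 weeks its effect was 0.05 ± 0.139. The difference between these times, 0.52 ± 0.197, was not called (adjusted p = 0.655). With the shunt, angiotensin II and Ditpa the effect on M83107_g_at was 0.01 ± 0.0965, -0.07 ± 0.136 and 0.01 ± 0.136. On average M83107_g_at was higher by 0.14 ± 0.0437 (18 of 26 arrays, adjusted p = 0.0509) and M83107_at rose by 0.26 ± 0.0515 (24 of 26, adjusted p = 0.00132). The M83107_at call was lost when the 5 models were weighted equally (0.21, adjusted p = 0.141).

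Myl9 rose in infarction on both of its probe sets over the 2 times combined, while at single times the probe sets differed. S77900_g_at had 3564, 2768, 3934 and 3908 at 3 weeks, against 2312 and 1964 in sham hearts, and 3635, 2999, 2434 and 2171 at 9 weeks, against 2239 and 2206. On this probe set the groups were apart at 3 weeks and overlapped at 9 weeks. The effect was 0.72 ± 0.154 log2 at 3 weeks (limma adjusted p = 0.0347), 0.31 ± 0.154 at 9 weeks (adjusted p = 0.374) and 0.51 ± 0.109 over both (adjusted p = 0.00608). The call at 3 weeks was lost in 5 of 6 cases with an array left out: without infarction sham replicate 1 (adjusted p = 0.079) or 2 (0.989) and without infarction replicate 3 (0.083), 5 (0.142) or 6 (0.13), with effects of 0.60 to 0.84. It was also lost as the mean of both probe sets (0.55, adjusted p = 0.129), and the call over both times was lost without infarction sham 3 weeks replicate 2 (0.46, adjusted p = 0.0906). S77900_at had 3385, 2595, 3017 and 2893 at 3 weeks, against 2716 and 1918 in sham hearts, and 3439.8, 2762, 2678 and 2016 at 9 weeks, against 2048 and 1823. Here the groups overlapped at both times. Its effect was 0.37 ± 0.147 at 3 weeks and 0.47 ± 0.147 at 9 weeks, neither called (adjusted p = 0.788 and 0.0919), and 0.42 ± 0.104 over both, which was called (adjusted p = 0.0222). In banding S77900_g_at was higher by 0.27 ± 0.0858 (adjusted p = 0.0607). The 6 week arrays, 3141 and 2393 against 2991 and 3061, lay on both sides of their shams, while those at 12 weeks, 2077 and 2399 against 1712 and 1572, and at 16 weeks, 2600.5 and 2764 against 2237 and 1941, lay above theirs. At 30 weeks the banded arrays had 2651, 2914, 2598 and 2620, against 1876 and 2162 in sham hearts, again without overlap. Without banding 6 weeks replicate 2 the banding effect was 0.32 and was called (adjusted p = 0.0303). In the shunt it was higher on all 4 arrays by 0.29 ± 0.125 and with Ditpa on both by 0.37 ± 0.177, neither called (adjusted p = 0.505 and 1). Over all treated groups S77900_g_at rose by 0.33 ± 0.0568 (24 of 26 arrays, adjusted p = 0.00028) and S77900_at by 0.28 ± 0.0544 (25 of 26, adjusted p = 0.00105).

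**Figure D2:**
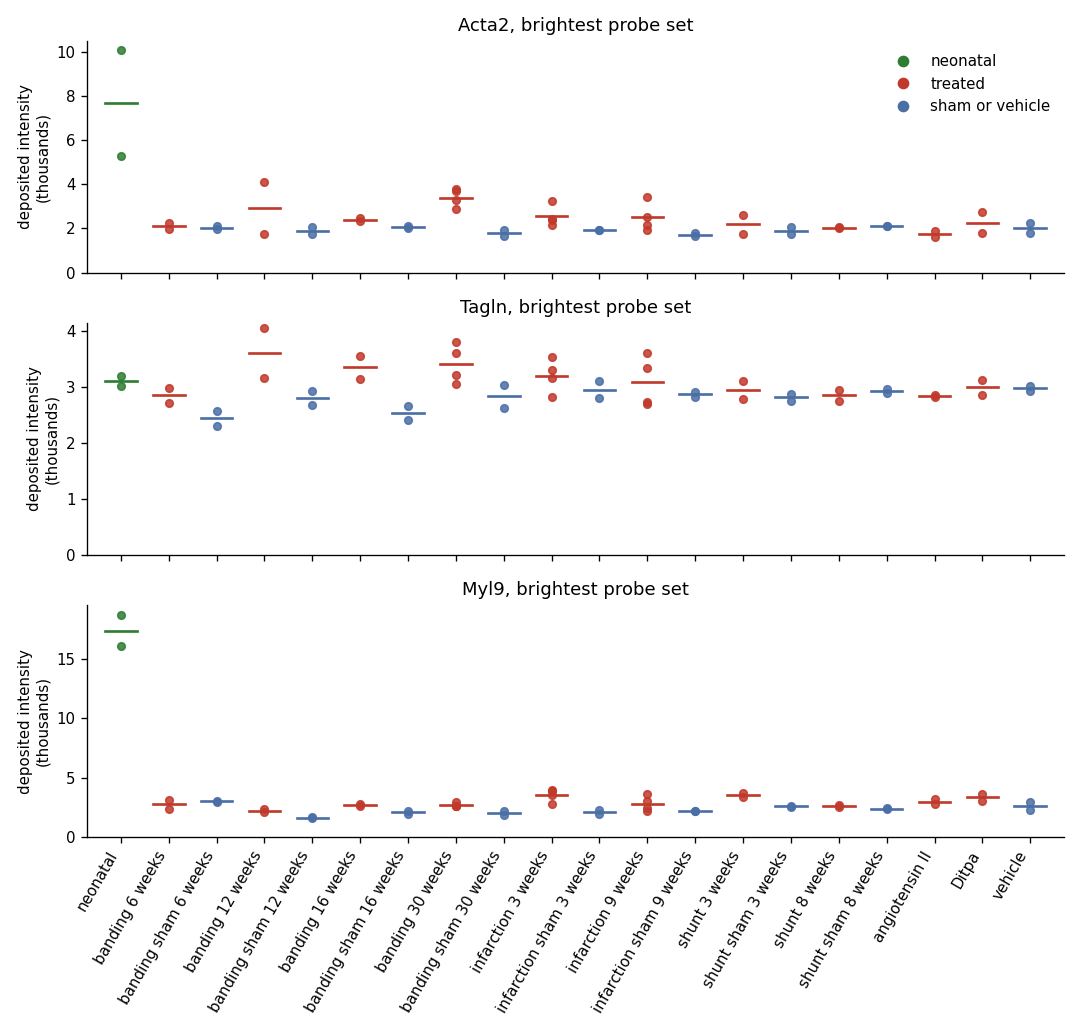
Deposited intensity (linear axes from 0) of the brightest probe set of Acta2, Tagln and Myl9 on each of the 46 arrays by group, neonatal in green, treated in red and sham or vehicle in blue, with a bar at the group mean. Acta2 and Myl9 are highest in the neonatal hearts, at 5299 and 10083 and at 18629.7 and 16045, and Tagln is not.

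Of the 8 probe sets, 5 were called higher in the average effect and none lower, where 3.64% of all probe sets were called higher and 5.21% in either direction. With banding 4 were called (3.28% of all probe sets higher), with infarction 4 (1.7%), and with the shunt, angiotensin II and Ditpa none (0.0458%, 0% and 0%). The banding calls were Acta1, X06801cds_f_at and both Tagln probe sets. The infarction calls were Acta1, X06801cds_f_at and both Myl9 probe sets. That Tagln was called in one model and Myl9 in the other does not show a difference between the models, which the F test did not find for either gene. No change with time was called: limma called 0 of 8740 probe sets between the banding times, between 9 and 3 weeks of infarction and between 8 and 3 weeks of the shunt (623, 509 and 402 at an unadjusted p below 0.05).

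**Figure D3:**
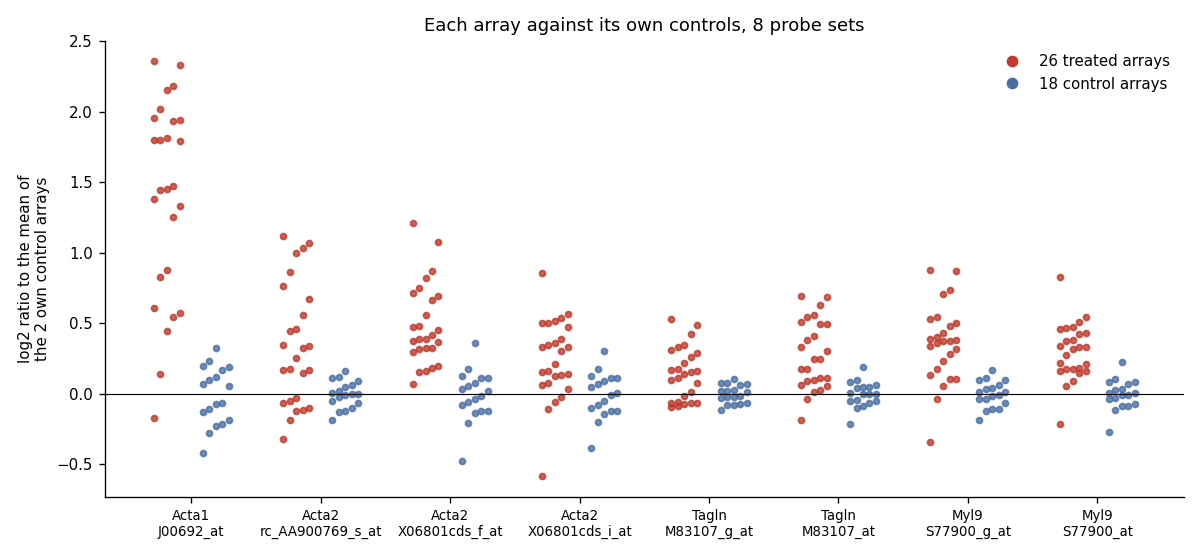
Log2 ratio of each array to the mean of its 2 own controls for the 8 probe sets, with the 26 treated arrays in red left of the 18 control arrays in blue. Acta1 reaches 2.36 on treated arrays while its control arrays lie between -0.42 and 0.32, and X06801cds_f_at is above 0 on all 26 treated arrays.

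**Figure D4:**
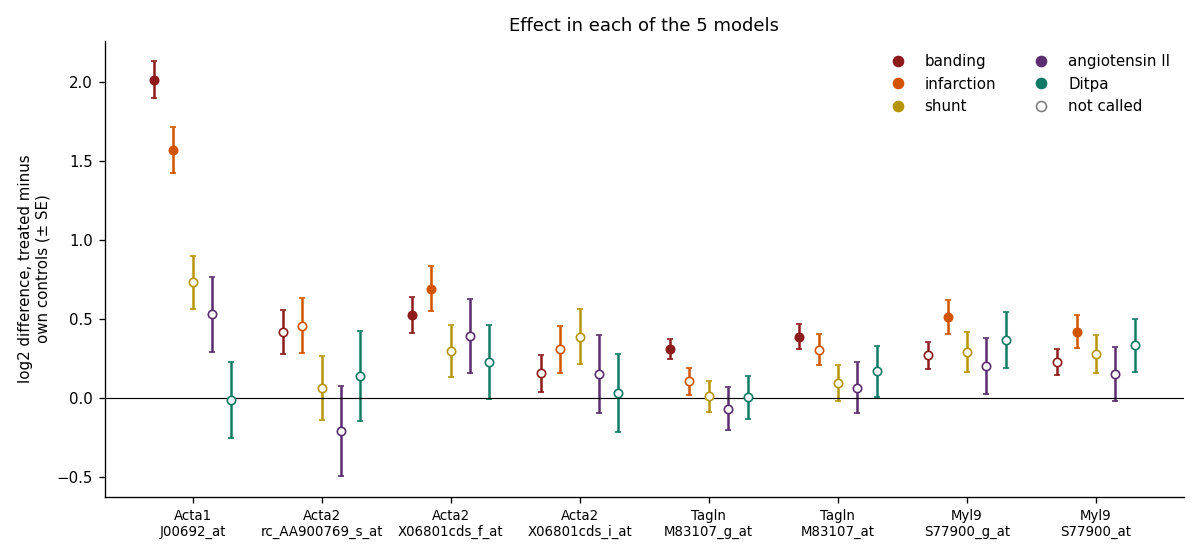
Effect (log2 difference from own controls ± SE) in banding, infarction, shunt, angiotensin II and Ditpa for the 8 probe sets, with filled points for called effects and open points for the others. Acta1 runs from 2.02 with banding to -0.01 with Ditpa, and the other genes stay below 0.70.

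The control levels themselves varied for some members. Among the 9 adult control groups limma's moderated F called Acta1 (adjusted p = 0.0242) and both Myl9 probe sets (adjusted p = 0.0337 and 0.0276), with 6.58% of all probe sets. Acta1 was highest in the vehicle arrays and, among shams, in the 6 week banding shams, and lowest in the 9 week infarction shams. Neither Acta2 nor Tagln was called in this comparison.

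In neonatal hearts the order of the genes was a different one. Myl9 had 18629.7 and 16045 on S77900_g_at, against 1572 to 3061 on the 18 adult control arrays (median 2267), and Acta2 had 5299 and 10083 on rc_AA900769_s_at, against 1638.5 to 2266 (median 1939). Acta1 had 24764 and 20586, against 4514 to 12725 (median 6646). For all 3 genes the neonatal arrays lay above every adult control array, a description for which the share of all probe sets is not given. Tagln did not follow on its brightest probe set, with 3195 and 3013 on M83107_g_at, against 2307 to 3104 (median 2844), so that the ranges overlapped. On M83107_at the neonatal arrays, at 1224 and 1628, also lay above every adult control array, at 806 to 1132. The neonatal minus adult difference was 2.93 ± 0.132 log2 for Myl9 (7.62-fold, limma adjusted p = 1.39e-17), 1.92 ± 0.214 for Acta2 (3.79-fold, adjusted p = 1.96e-08) and 1.66 ± 0.177 for Acta1 (3.15-fold, adjusted p = 9.3e-09). The neonatal arrays differed most for Acta2, whose difference was 2.39 without replicate 1 and 1.46 without replicate 2, both called. For Tagln the difference was 0.16 ± 0.102 (adjusted p = 0.251), with 0.51 ± 0.12 on M83107_at, which was called (adjusted p = 0.00121). The other Acta2 probe sets gave 1.79 ± 0.174 and 2.15 ± 0.183 and the other Myl9 probe set 3.09 ± 0.127, all called. In all, 7 of 8 probe sets were called higher, where 15.5% of all probe sets were and 17% were called lower. The neonatal arrays also had low highest values, 24526 to 30195, and Acta1 stood at 82 to 83.9% of them. After quantile normalization its difference was 2.13 ± 0.162, and against the vehicle arrays alone 0.95 ± 0.238 (adjusted p = 0.00546). Both atrial markers were higher in neonatal ventricles (Myl4 by 3.35 and Myl7 by 1.12), with a summed intensity of 21646 to 24845 on neonatal arrays and 3258 to 8663 on control arrays, and their part in the Myl9 and Acta2 differences was not tested.

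**Figure D5:**
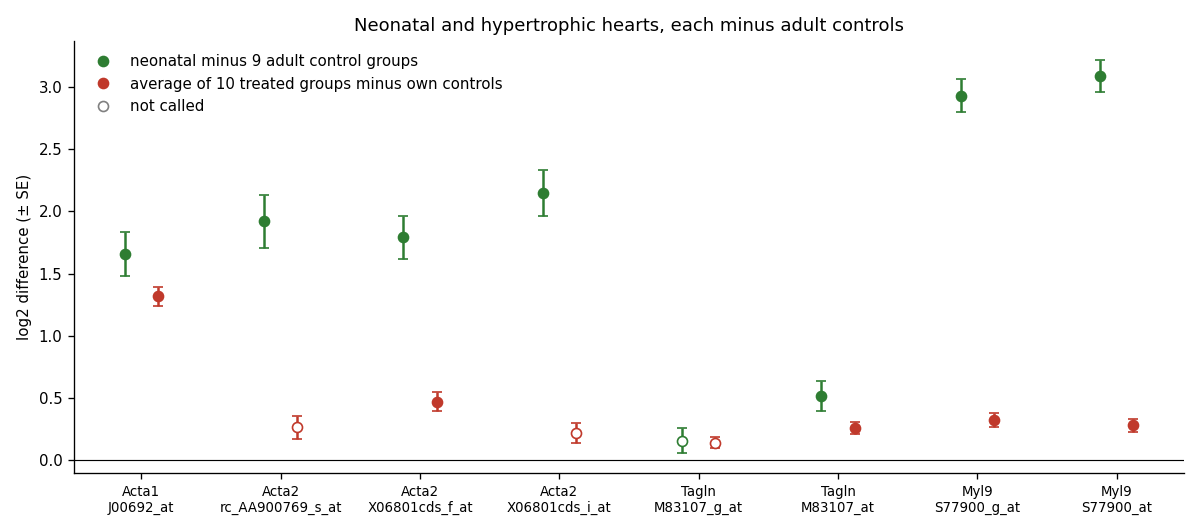
Log2 difference ± SE of neonatal hearts from the 9 adult control groups (green) and average effect of the 10 treated groups (red) for the 8 probe sets, with open points for those not called. Myl9 is at 2.93 and 3.09 in neonatal hearts and at 0.33 and 0.28 in hypertrophy, and Acta1 at 1.66 and 1.32. The control arrays are shared between both comparisons.

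Among the other actins, Actb, a cytoplasmic actin, rose by 0.20 ± 0.0551 log2 on average (limma adjusted p = 0.0276) and by 0.51 ± 0.105 after infarction (adjusted p = 0.00477), where the cytoplasmic actin Actg1 rose by 0.40 ± 0.1 (adjusted p = 0.0252). The Actg1 probe set, X52815cds_f_at, also carries the letter f, and how far other actins add to its signal was not tested. The cardiac actin Actc1 was at -0.11 ± 0.0787 and the enteric smooth muscle actin Actg2 at 0.07 ± 0.05 on average. In neonatal hearts Actg1 was higher by 0.74 ± 0.122 and Actb by 0.36 ± 0.128, and Actc1 was lower at -0.77 ± 0.183, each called. Actc1 lay near the top of the scale, with a median of 27321.5 on neonatal arrays, whose highest values were 24526 to 30195. The part of array scale in its lower value was not tested. Of the 4 probe sets shared between Acta2 and Actc1, 3 were among the brightest on the array, with medians of 33816 to 48920.0 and average effects of -0.11 to -0.05. The other was dim, with a median of 244 and an average effect of 0.30 (adjusted p = 0.0312).

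Of 12 measured smooth muscle contractile genes other than the members, 1 was called higher on average and none lower. This was Des, the intermediate filament desmin found in all muscle, at 0.25 ± 0.0573 log2 (limma adjusted p = 0.00559). The median of the 12 was 0.03, against 0.01 over all probe sets. Smooth muscle myosin Myh11 was at -0.01 ± 0.0336 and calponin Cnn1 at -0.14 ± 0.0653. In neonatal hearts 3 of the 12 were called higher, among them the tropomyosin Tpm2 at 2.38 ± 0.217 and the LIM protein Csrp1 at 1.42 ± 0.179, and 2 lower, the tropomyosin Tpm1 at -0.77 ± 0.183 and Myh11 at -0.30 ± 0.0782. Of the 12 measured genes of serum response factor, its cofactors and targets, 3 were higher and 1 lower on average, with a median of 0.12. The LIM proteins Csrp2 and Csrp3 rose by 0.97 ± 0.0929 and 0.35 ± 0.0541, Actb as above, and the LIM protein Fhl2 was lower, at -0.23 ± 0.0478 (adjusted p = 0.00271). Of 17 genes of actin filament assembly, 2 were higher and none lower on average, the actin monomer-binding profilin Pfn1 at 0.28 ± 0.06 and the Arp2/3 subunit Arpc1b at 0.22 ± 0.0683. In neonatal hearts 10 of the 17 were higher and 1 lower, with a median of 0.44, against -0.07 over all probe sets. Of 14 cardiac sarcomere genes, Des and Csrp3 were higher on average, and in neonatal hearts 1 was higher and 11 lower. Bright sarcomere genes such as Tnni3, with a neonatal median of 27339.5, lay near the highest values of the neonatal arrays, 24526 to 30195. The part of array scale in these lower values, and in that of Tpm1, was not tested.

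Markers of the cells that could carry these transcripts were set beside the results. Of 6 measured markers of vascular smooth muscle and pericytes none was called on average, and their median effect was -0.0047. Their summed intensity was 10806 to 14262 on treated arrays, 11627 to 12336 on neonatal arrays and 11311 to 13446 on control arrays. Median intensities in adult hearts were 2272 for Myh11, 3293 for Cnn1 and 3842 for Kcnmb1. The skeletal muscle markers Myog and Casq1 read 2097 and 3877 there, so such levels do not by themselves show that a gene was expressed. The same limit holds for the brightest Acta2, Tagln and Myl9 probe sets, whose medians on control arrays were 1939, 2844 and 2267. Of 12 fibroblast and myofibroblast markers 6 were higher and none lower on average, with the matricellular protein gene Postn at 1.42 ± 0.178 log2, fibronectin Fn1 at 0.55 ± 0.102 and collagen Col3a1 at 0.50 ± 0.0769. Their sum was 82389 to 106231 after infarction at 3 weeks, where the Myl9 effect was 0.72 on S77900_g_at and 0.37 on S77900_at, against 58893 to 61991 in the shams of that time. At 9 weeks, where those effects were 0.31 and 0.47, the sum was 56326 to 82902 after infarction, against 52592 to 53586 in sham hearts. In banded hearts the sum was 51562 to 55529 at 6 weeks, against 40575 to 46469 in shams, and 38474 to 46967 at 12 weeks, against 34092 to 39503. It was 44331 to 48594 at 16 weeks, against 32975 to 37491, and 41640 to 61587 at 30 weeks, against 40304 to 40571. Only the 12 week ranges overlapped. In neonatal hearts the sum was 58229 to 88975. The part of fibroblasts in the Acta2, Tagln and Myl9 results was not tested. Of 12 skeletal muscle markers none was called on average, and their summed intensity was 13647 to 17864 on treated and 14092 to 16724 on control arrays. Some of them were dim in adult hearts, such as Tnnc2 with a median of 199 and Myh4 with 419. The part of skeletal muscle cells in the Acta1 result was not tested. None of 10 cardiomyocyte and 5 endothelial markers was called on average. Lyz2 was the 1 of 4 macrophage markers called (0.97 ± 0.158), and neither of 2 atrial markers was.

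Genes whose pattern was most like that of each member were found among 6859 candidate probe sets with a single gene symbol, as a description, since the arrays of a group share their controls. Over the 26 log2 ratios the natriuretic peptide genes Nppa (Pearson r = 0.92) and Nppb (0.88), with Akip1 (0.91), which encodes a protein that binds protein kinase A, were most like Acta1. Acta2 was most like the protease inhibitor Cstb (0.82), the cardiac transcription factor Gata4 (0.80) and the mitochondrial ribosomal protein gene Mrps6 (0.80). For Tagln they were Akip1 (0.75), Krtcap2 (0.74) and Csrp2 (0.73), and for Myl9 the transcription factor Klf10 (0.75), collagen Col1a1 (0.70) and the diacylglycerol kinase Dgkg (0.70). Over the deviations of all 46 arrays from their group means, where treatment differences are removed, the nearest were Adipor2 for Acta1 (0.75), Csrp2 for Acta2 (0.76), Ppp1r9b for Tagln (0.73) and the proteoglycan Bgn for Myl9 (0.76). Among the members, the log2 ratios of Acta1 correlated at 0.70 with those of Tagln, at 0.59 with those of Acta2 and at 0.13 with those of Myl9, and those of Acta2 and Tagln at 0.61. Within groups the correlation of Acta1 with Tagln was 0.19 and that of Acta2 with Tagln 0.56.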

How the data were processed

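Left ventricular RNA pools were hybridised to Affymetrix GeneChip RGU34A arrays. The authors' deposited values are intensities, computed by them in dChip from perfect-match probes with model-based expression and invariant-set normalization, and the depth of such data is limited by the number of arrays. Here they were raised to at least 16, put on the log2 scale and fitted with limma 3.58.1 in R 4.3.3, with 1 mean for each of the 20 groups, so that groups of 2 arrays share an estimate of the spread with 26 residual degrees of freedom. Probe sets were named from the platform annotation, in which 7006 had 1 symbol, 308 several and 1426 none listed here. Of the 7006, 6985 were matched to RefSeq by gene ID. Differences between models were adjusted by Bonferroni, as was the rank sum test, whose exact two-sided form on treated against control ratios was chosen here, and all others by Benjamini-Hochberg. A gene was given by its probe set with the highest mean log2 intensity. Genes of like pattern were the 3 with the highest Pearson r for each member and measure, among probe sets with a mean log2 intensity of at least 7. From each gene list the counts and up to 4 called genes were named, with all actin isoforms and, chosen after their values were seen, Myh11, Cnn1 and Kcnmb1. The members and the gene lists were chosen with earlier results of these data known. The fit was tested on simulated data. Sequences came from RefSeq (GRCr8), which matched 2 of the 4 members in the promoter table. Alternatives are given in the closing section.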

Additional observations from a re-analysis of the deposited data

Results flagged for a closer look

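The Acta1 effect differed between the 5 models, with a Bonferroni adjusted p of 0.000214 from limma's moderated F. It also differed between surgical models and hormones, by 1.18 log2 (limma adjusted p = 0.00762). That call was lost after quantile normalization (0.72, limma adjusted p = 0.362) and without vehicle replicate 2, where the difference was 1.06. Among 24 sets of 4 arrays (8 probe sets in 3 groups), 1 held an array far from the rest: the Acta2 probe set X06801cds_i_at in banding 30 weeks replicate 4, at 691.9 against 900.0 to 939 on the other 3 arrays. Chance marks about 1 set in 20.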

How the results depend on the processing

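Of 316 alternative values for the main results, 300 kept their direction and their side of the threshold, as did 761 of the 792 values with an array left out. These totals include many results far from a call, such as the hormone effects and the differences between models for Acta2, Tagln and Myl9. They therefore say little of the borderline results. The Acta1 effects over all banding times, over both infarction times, on average and in neonatal hearts kept their direction and their call under every alternative. The size of the average Acta1 effect ran from 0.97 to 1.58 over the alternatives, and that at 6 weeks of banding from 1.45 to 1.87. At 12 weeks of banding alone, Acta1 missed the threshold with array weights (adjusted p = 0.0602). The average Acta2 effect gained a call with array weights (0.27, limma adjusted p = 0.033), as the mean of its probe sets (0.32) and in surgical groups alone (0.34). The average Tagln effect gained one without dim probe sets (0.14), with array weights (0.15), with a trend and robust prior (0.14), as the mean of its probe sets (0.20) and in surgical groups alone (0.19). The mean of probe sets also called Acta2 with banding (0.37) and Tagln in neonatal hearts (0.34), and array weights called Acta2 after infarction (0.46). Quantile normalization took the call from Acta1 in surgical minus hormone groups (0.72, adjusted p = 0.362). Small values changed sign: under quantile normalization Tagln in the shunt (-0.020), at 3 weeks of it (-0.0079) and with Ditpa (-0.0035), Acta1 with Ditpa (0.15) and Acta2 at 6 weeks of banding (-0.0079), and as the mean of probe sets Acta2 with angiotensin II (0.11) and at 8 weeks of the shunt (0.17) and Tagln at 8 weeks of the shunt (0.03). The cause of these changes was not tested. Other scalings turned the share of higher calls, 69.9% on average, to 54.4% (quantile) or 58.1% (median-centred), with 62.4% against 45.4% or 49.7% in banding and 87.1% against 73.3% or 84.7% in infarction.

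With each array left out in turn, the ranges were as follows, where a group left with 1 array was assumed to vary like the others. The average effect was 0.21 to 0.33 for Acta2 and 0.12 to 0.16 for Tagln (called in 13 of 44 cases), and the banding effect 0.27 to 0.57 for Acta2 and 0.22 to 0.32 for Myl9. Myl9 after infarction was 0.45 to 0.57. In the shunt Acta1 was 0.55 to 0.92, Acta2 -0.081 to 0.21 and Tagln -0.028 to 0.052. With Ditpa Acta1 was -0.17 to 0.15, Acta2 -0.17 to 0.45 and Tagln -0.062 to 0.076. Surgical minus hormone was 1.06 to 1.30 for Acta1 and -0.10 to 0.25 for Myl9. At single times Acta2 was -0.053 to 0.15 (banding 6 weeks), -0.095 to 1.12 (banding 12 weeks) and -0.11 to 0.47 (shunt 3 weeks), Myl9 -0.34 to 0.054 (banding 6 weeks), and Tagln -0.017 to 0.14 (shunt 3 weeks) and -0.090 to 0.014 (shunt 8 weeks).

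Replicate numbers are shared in the labels by vehicle, angiotensin II and Ditpa arrays. Arrays of the same number did not deviate together (r = -0.04, -0.06 and -0.08), so the numbers were not taken as pairs. With the replicate number as a block the angiotensin II and Ditpa effects were 0.53 and -0.01 for Acta1, -0.21 and 0.14 for Acta2, -0.07 and 0.01 for Tagln and 0.20 and 0.37 for Myl9, and no call changed.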
